A study of Mus musculus with 6 samples.

Results

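The genes described here are the glucocorticoid receptor, Nr3c1, the enzyme that regenerates its hormone inside cells, Hsd11b1, and 6 genes that the receptor is known to switch on, Fkbp5, Tsc22d3, Zbtb16, Errfi1, Ddit4 and Cebpd. They were chosen by name, with earlier results of these data known. All 8 were found among the 43432 genes of the deposited table, of which 24679 had a read. Atria of 3 obese and 3 lean C57/Bl6J mice, all wild type, were sequenced. The obese group ate a high-fat diet (HFD) and the lean group control chow, both for 10 weeks from 6 weeks of age, and right and left atrial tissue was then taken. Each sample is 1 mouse as its title names it, and the question addressed by the comparison is how obesity affects atrial gene expression. The diet of each sample follows its title and the column names of the table, because another field of the labels, that for the treatment, names the other diet in each of the 6 samples. If that field were right instead, every direction given here would be turned around.

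Glucocorticoids (corticosterone in mice) enter cells and bind the glucocorticoid receptor, which waits in the cytoplasm in a complex with the chaperone Hsp90 and co-chaperones. The hormone-bound receptor moves to the nucleus, binds short inverted-repeat DNA elements as a dimer and switches on genes that restrain inflammation, insulin signaling and growth and that mobilize fuel. Several of these genes feed back on the pathway: FKBP51, the protein of Fkbp5, lowers the receptor's affinity for its hormone. The level of hormone, the level of the receptor and the activity of the enzyme 11β-hydroxysteroid dehydrogenase type 1 (Hsd11b1) each can set how strongly a tissue responds. In the heart the receptor is expressed in myocytes and in the other cell types.

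The values are normalized counts, the authors' reads per gene divided by 1 size factor per sample. The samples held 15874251 to 28971508 reads on genes, of which 19.5% to 30.7% lay on mitochondrial genes, with lean mouse 2 at the top of both ranges. Of the 8 genes, the lowest value rested on 156 reads (Hsd11b1 in lean mouse 3). The main test, limma, was run on log2(normalized count + 1) of the 15275 genes that averaged 10 or more normalized counts. Fold changes refer to that scale, on which genes with low counts change less than in the counts themselves, and p-values were adjusted over all genes of the fit (Benjamini-Hochberg). In that fit 74 genes, or 0.484% of those tested, were higher in obese atria at an adjusted p under 0.05, and 40 genes, or 0.262%, were lower. Obese mouse 3 stood apart from obese mice 1 and 2 in several lists of genes. All 6 atrial myocyte markers were detected in the samples. Their summed level was 287590.2 and 288452.2 normalized counts in obese mice 1 and 2, against 520943.5 in obese mouse 3. In the lean mice it was 445759.3 to 485423.7. Nppa made up most of this sum, at 171701.9, 179007.7 and 333975.0 in obese mice 1, 2 and 3. Obese mouse 3 had the highest obese value for 4 of the 6 markers, but not for Sln (19798.6, against 23713.7 and 19692.8). Its Sbk2 value was the lowest (2368.2, against 2526.5 and 2655.6). The summed level of 10 immediate early genes was 12513.4 in obese mouse 3, against 4480.3 and 4395.4 in the other obese mice and 3916.0 to 8386.9 in the lean mice. Without obese mouse 3 the fit called 342 genes in place of 114, so results for the 8 genes are also given without that mouse where they differ. The labels do not say in which proportion right and left atria entered a sample.

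None of the 8 genes passed the adjusted threshold in limma, while 6 had an unadjusted p under 0.05 and all 6 were higher in obese atria. These 6 were the 6 target genes. Among all genes tested, 6.66% were higher and 5.55% lower at an unadjusted p under 0.05. edgeR with TMM or RLE normalization on the recovered reads also called none of the 8 and had 6 at an unadjusted p under 0.05, and DESeq2 called 3 (Fkbp5, Errfi1 and Cebpd), with 6 at an unadjusted p under 0.05. For 4 of the 8 (Fkbp5, Zbtb16, Errfi1 and Cebpd) every obese mouse lay above every lean mouse, and for none did every obese mouse lie below. Over all genes tested those shares were 8.86% and 9.17%. The median log2 fold change of the 8 genes was 0.65, and that of all genes tested was 0.0049. Because the 8 genes were chosen with earlier results of these data known, their direction is not independent evidence. The summed level of the 8 genes was 6728.6 to 9740.3 normalized counts in obese and 4829.0 to 5645.5 in lean atria. With 3 mice in each group, 0.1 is the smallest two-sided p of an exact permutation test.

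**Figure D1:**
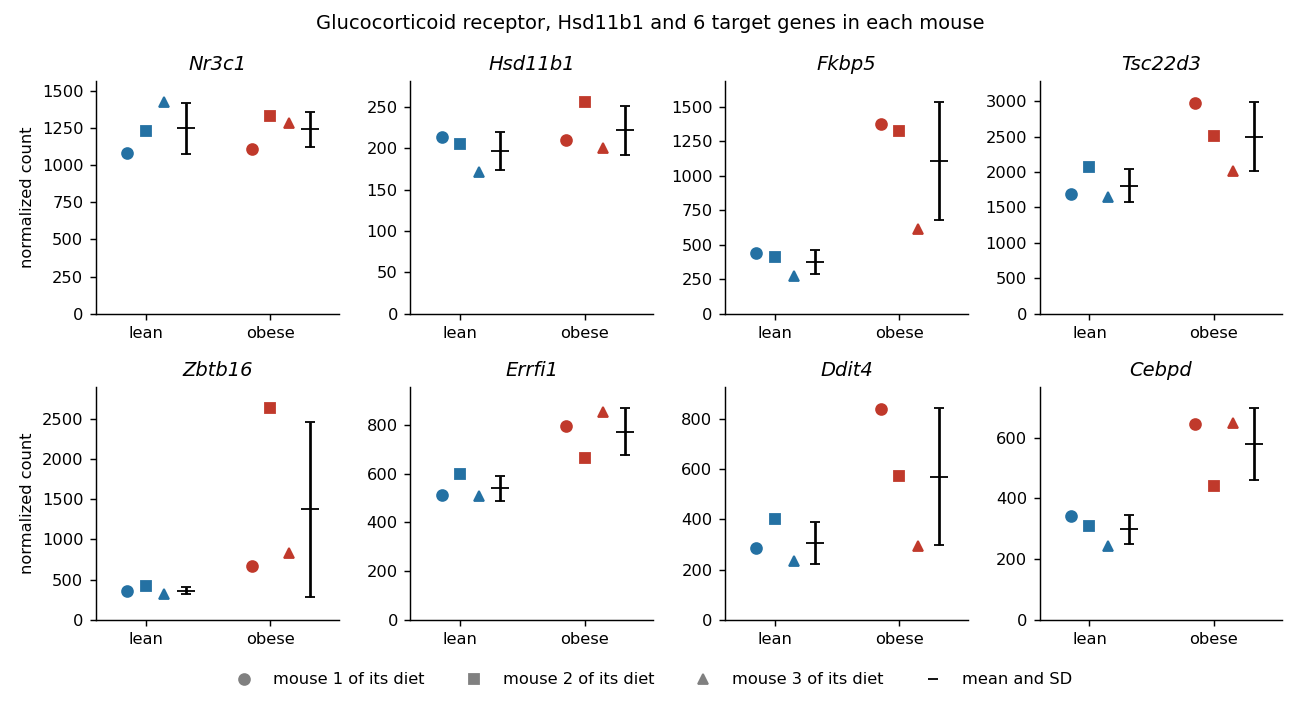
Normalized count (vertical axes, from 0, each on its own scale) of the 8 genes in each lean (blue) and obese (red) mouse, with the marker shape giving the number of the mouse in its diet group and the bar the mean and SD of 3 mice. The receptor sits at the same level in both groups (1242.2 obese, 1247.1 lean), whereas all 3 obese mice lie above all 3 lean mice for Fkbp5, Zbtb16, Errfi1 and Cebpd.

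The receptor itself was present at the same mean level in both groups. Nr3c1 (chromosome 18, GRCm38, 39410545 to 39491301, minus strand) measured 1109.0, 1332.9 and 1284.6 normalized counts in obese mice 1, 2 and 3 and 1083.8, 1233.3 and 1424.2 in lean mice 1, 2 and 3. The lean values spanned the obese values, with lean mice at both ends of the order. Mean levels were 1242.2 ± 118 in the obese group and 1247.1 ± 171 in the lean group (SD, n = 3 each). The 95% interval of the log2 fold change ran from -0.30 to 0.29 (limma, adjusted p = 0.999). In bulk tissue, fewer cells of a type and less RNA per cell cannot be told apart, so these levels are averages over all cells of the atria.

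Nr3c2, the mineralocorticoid receptor, which binds the same hormone, measured 364, 443 and 225 normalized counts in obese and 350, 435 and 492 in lean atria. The lowest value was that of obese mouse 3, while the other obese mice lay within the lean range. Its log2 fold change was -0.35 ± 0.24 (SE; limma, adjusted p = 0.609).

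Hsd11b1 (chromosome 1, 193221634 to 193264075, minus strand) turns inert 11-dehydrocorticosterone back into corticosterone. It measured 210, 256 and 200 normalized counts in obese mice 1, 2 and 3 and 214, 205 and 171 in lean mice. The groups overlapped, with obese mouse 2 highest and lean mouse 3 lowest. The log2 fold change was 0.17, with a 95% interval from -0.20 to 0.55 (limma, adjusted p = 0.739). Lamb3 and a further annotated gene on the opposite strand overlap Hsd11b1, as does Gm38118 on the same strand. Whether the counting used strand is not stated in the methods.

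H6pd supplies the cofactor that sets the direction of the Hsd11b1 reaction. Its level was 838, 1059.6 and 1016.6 normalized counts in obese and 820, 782 and 801 in lean atria, so that the groups did not overlap, but it did not pass the test (log2 fold change 0.27, limma adjusted p = 0.42). Hsd11b2, which inactivates the hormone, had at most 4.37 normalized counts in any mouse. Of the 8 enzymes and carriers listed, 3 passed the filter on low values and none had an unadjusted p under 0.05 (limma and DESeq2). edgeR called none of them either, with 1 at an unadjusted p under 0.05 with TMM and 0 with RLE. Cyp11b1 and Cyp11b2, the last enzymes of corticosterone and aldosterone synthesis, had no read in any of the 6 samples, which allows up to 3 reads in each, or 2.05 normalized counts in lean mouse 2 and 3.01 to 3.41 in the others.

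Fkbp5 had the smallest p of the 8 genes. Fkbp5 (chromosome 17, 28399095 to 28517524, minus strand) measured 1380.3, 1327.8 and 613 normalized counts in obese mice 1, 2 and 3 and 441, 408 and 277 in lean mice 1, 2 and 3. Obese mice 1 and 2 were at 3.68 and 3.54 times the lean mean, and obese mouse 3 was at 1.63 times. The means were 1107.1 ± 428 and 375 ± 87 (SD, n = 3 each). On the log2 scale the fitted difference was 1.5, or 2.82-fold, with a 95% interval from 0.85 to 2.14 (limma, p = 0.00039, adjusted p = 0.0509; exact permutation p = 0.1, the smallest possible). It thus missed the adjusted threshold by a narrow margin, with 116 of the genes tested having a smaller p. Without obese mouse 3 the log2 fold change was 1.88 and the adjusted p 0.00099 (limma). Leaving out any other mouse gave 1.29 to 1.63 (adjusted p from 0.117 to 0.181).

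Zbtb16, which encodes the zinc finger repressor PLZF, showed the widest spread among the obese mice. Zbtb16 (chromosome 9, 48654311 to 48835945, minus strand) measured 666, 2632.2 and 826 normalized counts in obese mice and 353, 417 and 324 in lean mice. Obese mouse 2 was at 7.22 times the lean mean, obese mice 1 and 3 were at 1.83 and 2.26 times, and the lean mice lay close together. The highest obese value was 3.95 times the lowest, against 1.29 times within the lean group. The log2 fold change was 1.64, with a 95% interval from 0.75 to 2.53 (limma, adjusted p = 0.102). Without obese mouse 2 it was 1.03 (adjusted p = 0.0535), without obese mouse 3 it was 1.87 (adjusted p = 0.0476) and without obese mouse 1 it was 2.02 (adjusted p = 0.0633).

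Cebpd, a transcription factor of the C/EBP family that acts in inflammation and fat cell differentiation, was higher in each obese mouse than in each lean mouse. Cebpd (chromosome 16, 15887286 to 15888466, plus strand), which the deposited table types as a pseudogene, measured 645, 441 and 649 normalized counts in obese and 341, 308 and 244 in lean mice. Here obese mouse 3 was as high as obese mouse 1, at 2.18 and 2.17 times the lean mean, and obese mouse 2 was lowest at 1.48 times. Mean levels were 578 ± 119 in obese and 298 ± 49.7 in lean mice (SD, n = 3 each). On the log2 scale the difference was 0.95, with a 95% interval from 0.53 to 1.36 (limma, p = 0.000468, adjusted p = 0.055; exact permutation p = 0.1).

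Errfi1 encodes MIG6, an inhibitor of the EGF receptor. Errfi1 (chromosome 4, 150853919 to 150868892, plus strand) measured 795, 665 and 853 normalized counts in obese and 511, 599 and 506 in lean mice. The groups did not overlap, but obese mouse 2 and lean mouse 2 lay near each other. Its log2 fold change was 0.51, with a 95% interval from 0.21 to 0.82 (limma, p = 0.0037, adjusted p = 0.131; exact permutation p = 0.1). It was the member with the narrowest spread between mice among the 6 targets, the highest obese value being 1.28 times the lowest and the highest lean value 1.18 times the lowest. An annotated gene on the opposite strand, 1700045H11Rik, overlaps Errfi1.

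Tsc22d3 encodes GILZ, a leucine zipper protein that binds and inhibits inflammatory transcription factors. Tsc22d3 (chromosome X, 140539528 to 140600659, minus strand) measured 2977.5, 2512.8 and 2008.1 normalized counts in obese and 1690.7, 2075.1 and 1648.3 in lean mice. The groups overlapped, since obese mouse 3 lay below lean mouse 2. The difference on the log2 scale was 0.46, with a 95% interval from 0.11 to 0.80 (limma, p = 0.0142, adjusted p = 0.25; exact permutation p = 0.2). Without obese mouse 3 it was 0.61 (adjusted p = 0.0486). Leaving out any other mouse gave 0.32 to 0.56 (limma, adjusted p from 0.339 to 0.518).

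Ddit4 encodes REDD1, an inhibitor of mTORC1 that glucocorticoids, hypoxia and energy shortage induce. Ddit4 (chromosome 10, 59949675 to 59951770, minus strand) measured 842, 573 and 295 normalized counts in obese and 287, 400 and 236 in lean mice. Obese mice 1 and 2 lay above all lean mice, whereas obese mouse 3 fell within the lean range at 0.96 times the lean mean. A log2 fold change of 0.80 was measured, with a 95% interval from 0.07 to 1.53 (limma, p = 0.0354, adjusted p = 0.365; exact permutation p = 0.2). It was 1.21 without obese mouse 3 (adjusted p = 0.0237) and 0.45 without obese mouse 1 (adjusted p = 0.606). Its paralog Ddit4l, measured at 96.4, 72.4 and 63.6 normalized counts in obese and 107, 141 and 195 in lean atria, had a log2 fold change of -0.90 (limma, adjusted p = 0.165), with every obese mouse below every lean mouse.

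Without obese mouse 3, 4 of the 8 genes passed the adjusted threshold in limma (Fkbp5, Tsc22d3, Zbtb16 and Ddit4), and without any other single mouse none did. In the fit without obese mouse 3, 342 of all 15297 genes tested passed, 218 of them higher. Not every target rose further in that fit. The log2 fold change of Cebpd was 0.85 (adjusted p = 0.0573), against 0.95 with all mice. That of Errfi1 was 0.44 (adjusted p = 0.171), against 0.51. In obese mouse 3 the 8 genes did not move as a block. It had the lowest obese value for Hsd11b1, Fkbp5, Tsc22d3 and Ddit4 and the highest for Errfi1 and Cebpd. The difference between obese mouse 3 and the others has no replicate and was not tested.

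Per kilobase of exon, the order of the mean levels of the 8 genes was not the same in both groups. In obese atria the mean level per kilobase was highest for Tsc22d3 (576 normalized counts per kilobase) and Cebpd (489), followed by Ddit4 (338), Zbtb16 (270), Errfi1 (215), Nr3c1 (167), Fkbp5 (117) and Hsd11b1 (52.2). In lean atria Tsc22d3 (416), Cebpd (252) and Ddit4 (183) again came in that order, followed by Nr3c1 (168), Errfi1 (150), Zbtb16 (71.5), Hsd11b1 (46.2) and Fkbp5 (39.6). Fkbp5 per kilobase was thus lowest of the 8 in lean atria, where its 3 values (29.2 to 46.6) overlapped those of Hsd11b1 (40.1 to 50.3), and above Hsd11b1 in every obese mouse (64.8 to 146 against 47 to 60.2). Other neighbours in the order overlapped too. In lean atria they were Cebpd (206 to 289) with Ddit4 (140 to 238), Ddit4 with Nr3c1 (146 to 192) and Nr3c1 with Errfi1 (141 to 167). In obese atria Tsc22d3 (463 to 686) overlapped Cebpd (373 to 549), Cebpd overlapped Ddit4 (175 to 500), Ddit4 overlapped Zbtb16 (131 to 516) and Zbtb16 overlapped Errfi1 (186 to 238). The order of these neighbours is thus not resolved.

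The element that the receptor binds is written here as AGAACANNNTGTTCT, a 6-letter arm and its inverted copy with 3 free letters between them, which reads the same on both strands. It was looked for in the RefSeq promoter windows of GRCm38.p6, which run from 250 bases before to 50 bases after a start site, for 5 of the 8 genes (Hsd11b1, Fkbp5, Tsc22d3, Errfi1 and Ddit4). These 5 genes have 8 windows. The full repeat with at most 2 of its 12 fixed letters changed was in none of the 8, and it was in 1.84% of all 32851 windows. The closest stretch in any window of the 5 genes had 3 letters changed (Errfi1), which 14.5% of all windows match at least as well. A complete 6-letter arm, AGAACA or TGTTCT, was in 1 of the 8 windows (Tsc22d3), against 19% of all windows. The stretches below are shown because they are the nearest that the windows of Fkbp5 and Errfi1 come to the full repeat and, for Tsc22d3, the only complete arm, beside a window of Sgk1, another known target, in which all 12 letters match. Capitals mark the compared letters of the repeat, or for Tsc22d3 the arm.
Sgk1 chr10:21993681-21993735, plus strand: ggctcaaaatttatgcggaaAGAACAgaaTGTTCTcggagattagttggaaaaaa
Errfi1 chr4:150854820-150854869, plus strand: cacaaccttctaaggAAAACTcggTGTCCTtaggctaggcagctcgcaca
Tsc22d3 chrX:140600682-140600727, minus strand: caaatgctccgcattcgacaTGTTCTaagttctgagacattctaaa
Fkbp5 chr17:28486270-28486324, minus strand: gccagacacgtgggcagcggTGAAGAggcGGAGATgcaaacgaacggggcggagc
In the Fkbp5 window the nearest stretch had 6 of the 12 letters changed. These counts describe the letters of these windows only, and the receptor also acts from sites far from the start.

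Sgk1, of which 1 window holds the full repeat, measured 864, 871 and 988 normalized counts in obese and 719, 784 and 730 in lean atria. The groups did not overlap, yet the difference was small, with a log2 fold change of 0.28 ± 0.12 (SE; limma, adjusted p = 0.357). Trim63, a muscle ubiquitin ligase whose window holds the repeat with 1 letter changed, differed by -0.07 on the log2 scale (limma, adjusted p = 0.847). Both were singled out after their values were seen.

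Beyond the 6 targets, 26 other genes known to be induced through the receptor were examined, of which 25 passed the filter on low values. Of these 25, 6 rose in obese atria at an adjusted p under 0.05 (limma), none fell, and 18 had an unadjusted p under 0.05, all of them higher. All 3 obese mice lay above all 3 lean mice for 16 of the 25. Over all genes tested, 0.484% were called higher, 6.66% were higher at an unadjusted p under 0.05 (limma), and 8.86% had all obese mice above all lean mice. The median log2 fold change of the 25 was 0.54. The list was drawn up with earlier results of these samples known, so its direction is not independent evidence. The 6 that rose code for a lipoprotein lipase inhibitor (Angptl4), a kinase that shuts pyruvate oxidation (Pdk4), a cell cycle inhibitor (Cdkn1a), metal-binding metallothioneins (Mt1 and Mt2) and a macrophage scavenger receptor (Cd163). Several of them also respond to fatty acids, metals or DNA damage, so the list is not specific to the receptor.

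Angptl4 showed the largest difference of the 25. It measured 1851.4, 1417.6 and 1411.8 normalized counts in obese and 80.6, 33.5 and 32.8 in lean mice. The log2 fold change was 5.08 ± 0.30 (SE; limma, adjusted p = 0.000116). Pdk4 measured 58780.0, 64655.9 and 28362.7 in obese and 5700.2, 4800.3 and 5656.5 in lean mice, with a log2 fold change of 3.15 (adjusted p = 0.000719). As with Fkbp5, obese mouse 3 had the lowest obese value of Pdk4 but stayed above all lean mice.

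Mt2 measured 1074.9, 1060.6 and 722 normalized counts in obese and 171, 137 and 115 in lean mice (log2 fold change 2.74, limma adjusted p = 0.000268). Mt1 measured 4064.5, 3169.6 and 2271.7 against 1482.4, 1122.4 and 880 (log2 fold change 1.44, adjusted p = 0.0233). Both metallothionein genes ranked the 6 mice alike. Cdkn1a was highest in obese mouse 3, at 2139.7, 2427.2 and 2942.9 in obese and 545, 541 and 411 in lean mice (log2 fold change 2.32, adjusted p = 0.000185). Cd163 measured 1040.7, 1272.7 and 803 against 544, 542 and 502 (log2 fold change 0.95, adjusted p = 0.031), and it lost the call without obese mouse 1 (adjusted p = 0.0857), obese mouse 2 (0.0935) or any lean mouse (0.109 to 0.139). Mt1 lost it without obese mouse 1 (0.0535), obese mouse 2 (0.0882), lean mouse 2 (0.0972) or lean mouse 3 (0.0995).

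Other widely used indicators of the receptor did not pass the threshold in limma; they were picked after their values were seen. Klf9 and Klf15, a pair of Krüppel-like factors, had log2 fold changes of 0.54 (adjusted p = 0.149) and 0.71 (adjusted p = 0.129), with all obese mice above all lean mice. The log2 fold change of Per1, a clock gene with a strong response to the hormone, was 0.29 (adjusted p = 0.618), and its groups overlapped because lean mouse 2 was the highest of the 6. Dusp1, a phosphatase of MAP kinases, differed by -0.06 on the log2 scale (adjusted p = 0.931). Fbxo32, the ubiquitin ligase atrogin-1, measured 5095.1, 5272.5 and 2050.2 normalized counts in obese and 1736.6, 1987.4 and 1854.9 in lean mice, with obese mouse 3 just above the lean range (log2 fold change 1.03, adjusted p = 0.158). Without obese mouse 3, Klf9, Klf15 and Fbxo32 passed the threshold in limma, and Klf9 and Klf15 also passed with DESeq2 on all 6 mice.

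**Figure D2:**
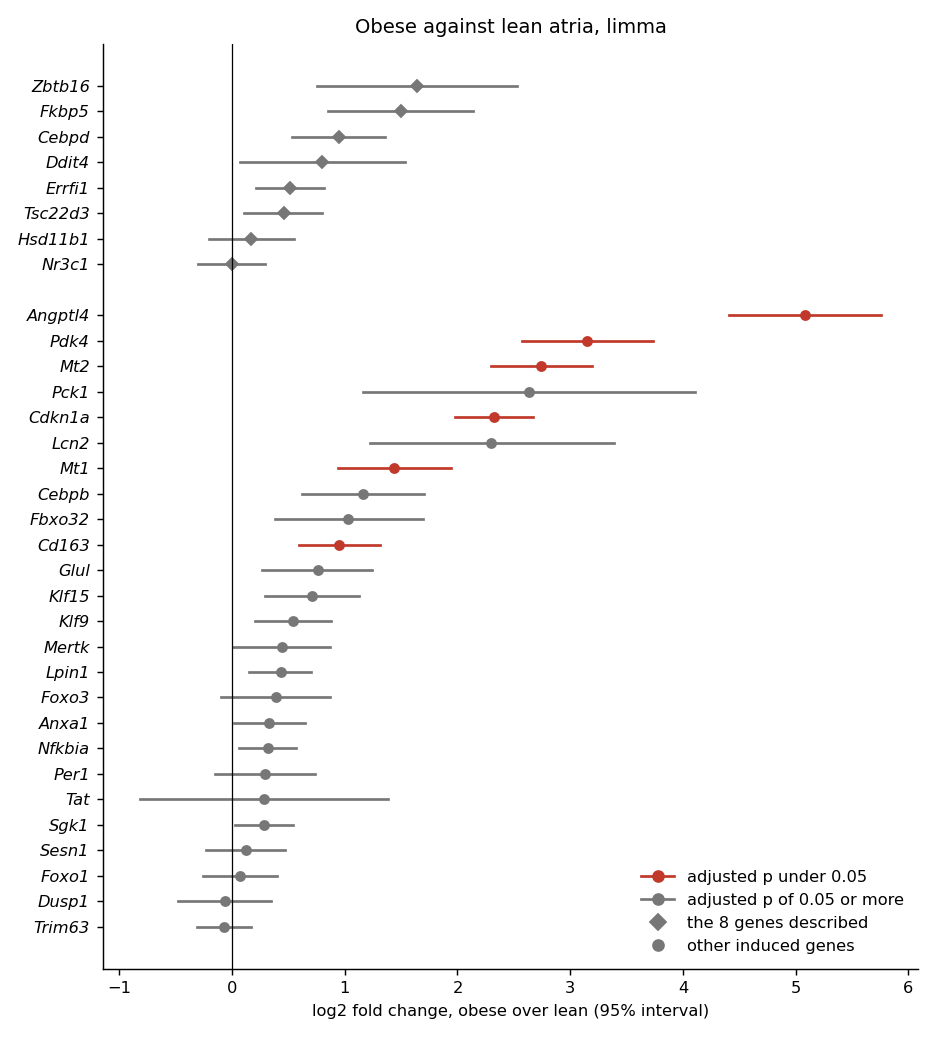
Log2 fold change of obese over lean atria (horizontal axis) with its 95% interval for the 8 genes (diamonds, top) and the 25 other induced genes tested (circles), in red where the adjusted p of limma was under 0.05. The intervals of all 6 targets lie above 0 while those of Nr3c1 and Hsd11b1 span it, and the 6 red genes are all among the other induced genes.

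Obese mouse 3 had the lowest obese value for 19 of the 25 other induced genes (76%), whereas it was the lowest obese mouse for 36.2% of all genes tested. The summed level of the 26 genes was 104859.3 and 108231.9 normalized counts in obese mice 1 and 2, 61407.3 in obese mouse 3 and 29138.2 to 30178.5 in the lean mice, with Pdk4 contributing more than any other gene in each obese mouse. Without obese mouse 3, 13 of the 25 genes passed the threshold in place of 6. Leaving out any other mouse gave 4 to 6. Over all genes, 342 of the 15297 tested passed without obese mouse 3, in place of 114 of 15275.

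**Figure D3:**
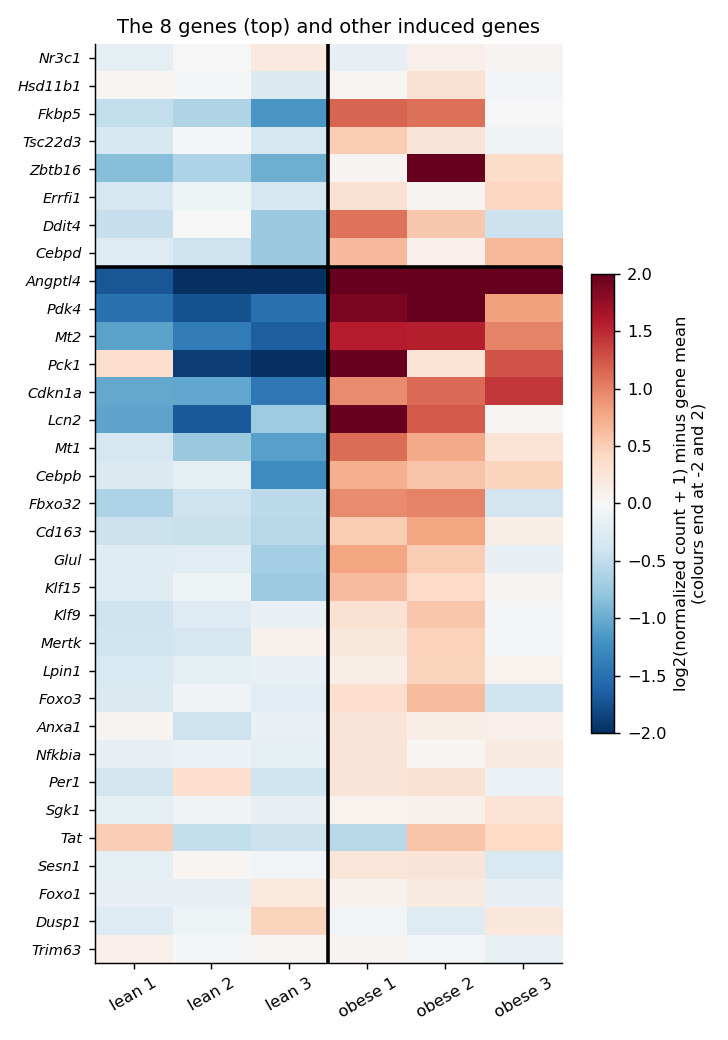
Colour map of log2(normalized count + 1) minus the mean of each gene over the 6 mice (red higher, blue lower, colours ending at -2 and 2), with mice in columns and genes in rows, the 8 genes above the line and the 25 other induced genes below it. Obese mouse 3 is near the gene mean for Fkbp5 and below it (blue) for Ddit4, Fbxo32 and Glul, where obese mice 1 and 2 are red. For Cdkn1a and Cebpd it is red, and Zbtb16 is darkest in obese mouse 2.

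Genes that act with the receptor were examined as well. Of 13 chaperones and co-chaperones of the receptor complex, Fkbp5 among them, none passed the adjusted threshold in limma or edgeR, 1 (Fkbp5) did in DESeq2, and 3 had an unadjusted p under 0.05 in limma, against 4 in edgeR and 5 in DESeq2. The 3 in limma were all higher. Among all genes tested in limma, 6.66% were higher and 5.55% lower at an unadjusted p under 0.05. Hsp90aa1, the inducible Hsp90, measured 6325.7, 8310.5 and 14748.7 normalized counts in obese and 5084.4, 4642.9 and 5036.7 in lean mice. The groups did not overlap, and it was highest in obese mouse 3 (log2 fold change 0.90, limma adjusted p = 0.139). That mouse had the highest obese value for 10 of the 13 genes and the lowest for 1 (Fkbp5). Among all 15275 genes tested it had the highest obese value for 5511. The constitutive Hsp90ab1 (log2 fold change 0.29, adjusted p = 0.472) and Hspa8 (0.24, adjusted p = 0.646), the most abundant genes of the list, had overlapping groups.

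Of 12 coregulators that the receptor recruits to DNA, none passed the adjusted threshold and none had an unadjusted p under 0.05 in limma, edgeR or DESeq2. The median log2 fold change was 0.14. Ncor1, a corepressor and the most abundant of the 12, had a log2 fold change of 0.06 (limma, adjusted p = 0.883). The coactivator Ncoa3 differed by 0.21 and the histone deacetylase Hdac2 by -0.21 on the log2 scale (adjusted p = 0.517 and 0.51).

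Fkbp5 stood well above the other tested members of the FK506-binding protein family in its difference between groups. The median log2 fold change of the 14 family members tested was -0.05, and none passed the adjusted threshold in limma or edgeR, with 2 at an unadjusted p under 0.05, while DESeq2 called Fkbp5 and Fkbp10. The 2 were higher in limma, beside 6.66% of all genes tested that were higher and 5.55% that were lower. Fkbp4, whose protein FKBP52 competes with FKBP51 for the receptor complex and raises hormone affinity, measured 3734.0, 3533.7 and 5452.0 normalized counts in obese and 4779.9, 4856.4 and 4469.4 in lean mice (log2 fold change -0.18, limma adjusted p = 0.718). Obese mouse 3 had the highest obese value of Fkbp4, as it had for 10 of the 13 chaperones and co-chaperones. Fkbp10, a collagen chaperone of the endoplasmic reticulum, measured 1057.8, 1058.6 and 1051.8 in obese and 793, 698 and 586 in lean mice (log2 fold change 0.62, adjusted p = 0.0662). Fkbp9, which had the highest mean level of the family after Fkbp4, differed by -0.03 on the log2 scale (adjusted p = 0.946).

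In the TSC22 family none of the 4 genes passed the adjusted threshold in limma, edgeR or DESeq2, with 3 at an unadjusted p under 0.05 in each, and the members differed in direction. Tsc22d1 differed by 0.35 on the log2 scale (limma, adjusted p = 0.193) and Tsc22d4 by -0.41 (adjusted p = 0.295). In the C/EBP family none of the 4 genes tested passed in limma or edgeR, although 3 had an unadjusted p under 0.05, and DESeq2 called Cebpb, Cebpd and Cebpg. Cebpb, which shares many targets with Cebpd, measured 965, 875 and 804 normalized counts in obese and 481, 514 and 245 in lean mice (log2 fold change 1.16, limma adjusted p = 0.0657), and Cebpg differed by 0.55 on the log2 scale (adjusted p = 0.144). Both had all obese mice above all lean mice. Among all genes tested, 8.86% had all obese mice above all lean mice. At an unadjusted p under 0.05 in limma, 6.66% were higher and 5.55% lower.

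Inflammatory genes that the receptor is known to repress did not share a direction. Of 8 tested, 1 rose and none fell (limma), 2 higher and 1 lower had an unadjusted p under 0.05, and the median log2 fold change was 0.04. Among all genes tested, 0.484% rose and 0.262% fell at the adjusted threshold. At an unadjusted p under 0.05, 6.66% were higher and 5.55% lower. The gene of the 8 that rose was Ptgs2, which encodes cyclooxygenase 2. It measured 126, 151 and 192 normalized counts in obese and 48.1, 36.3 and 77.6 in lean mice (log2 fold change 1.56, adjusted p = 0.0482), a call that was lost whichever mouse was left out (adjusted p from 0.0553 to 0.151) and with edgeR (0.062 with TMM). Nos2, the inducible nitric oxide synthase, lay lower in each obese mouse than in each lean mouse, at 68.3, 84.6 and 73.8 against 137, 134 and 109 (log2 fold change -0.74, adjusted p = 0.149). Il1b, which encodes interleukin 1β, lay higher in each obese mouse than in each lean mouse at low counts, 22.1, 27.5 and 97.7 against 5.6, 0 and 17.5 (adjusted p = 0.233). Nos2 and Il1b were named after their values were seen. Il6 and Tnf were below the filter on low values.

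The hormone follows a daily rhythm, and clock genes were therefore read beside the targets. Of 14 clock genes, 1 fell and none rose at an adjusted p under 0.05 (limma). It was Dbp, an output gene of the clock, at 171, 241 and 154 normalized counts in obese and 499, 547 and 491 in lean mice (log2 fold change -1.46, adjusted p = 0.00937), a call lost without lean mouse 2 (0.0613) or lean mouse 3 (0.0523). A further 3 clock genes (Tef, Hlf and Per3) had an unadjusted p under 0.05 and lay lower, and 3 (Arntl, Npas2 and Nfil3) lay higher, without overlap between the groups. Over all genes tested, 0.484% were called higher and 0.262% lower. At an unadjusted p under 0.05 (limma) 6.66% were higher and 5.55% lower. Without overlap, 8.86% lay higher and 9.17% lower. The time of day of tissue collection is not given in the sources used here, and the part of the clock genes in the differences of the targets was not tested. Of the 10 immediate early genes, which tissue handling can raise, none passed the adjusted threshold in limma, edgeR or DESeq2, and 1 had an unadjusted p under 0.05 in each (in limma Junb, log2 fold change 0.61, adjusted p = 0.327).

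Markers of fat cells, in which the receptor and Hsd11b1 are also active, were read beside the 8 genes. All 8 white adipocyte markers were detected, and their summed level was 3514.3 to 7050.0 normalized counts in obese and 1230.8 to 3899.8 in lean atria. These ranges overlapped, and 1 of the 8 was higher at an adjusted p under 0.05 (Lipe, a lipase that myocytes also express; limma). The summed level of 4 brown adipocyte markers was 616 to 1282.8 in obese and 187 to 330 in lean atria, with 2 of the 3 tested called higher (Ucp1 and Cidea). These calls depended on single mice. Of the 6 limma fits with 1 mouse left out, Ucp1 and Cidea each passed in 2 (adjusted p up to 0.17 and 0.139). Lipe passed in 3 (up to 0.0824). Among all genes tested, 0.484% were called higher and 0.262% lower. None of the 5 fibroblast, 5 endothelial, 5 macrophage, 5 mesothelial and 5 ventricular markers was called, and of the 6 atrial myocyte markers 1 was lower (Sbk2; limma). The summed endothelial level was 14749.0 to 15644.1 in obese and 12594.1 to 13175.7 in lean atria. Of the 5 endothelial markers Pecam1 had the largest difference, with means of 5917.0 in obese and 3989.0 in lean atria (limma, adjusted p = 0.0504). Cdh5, Kdr and Tie1 differed less, and Egfl7 lay lower in obese atria (means 1763.1 and 1996.8). The summed macrophage level was 5006.7 to 5344.3 in obese and 3881.4 to 4815.7 in lean atria. The part of these cell types in the differences of the 8 genes was not tested.

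The patterns of the 8 genes over the 6 mice were set against the 10830 genes that averaged 100 or more normalized counts. Likeness is given as the root mean square difference between log2 values, each gene centred on its own mean, so that a smaller value is a closer pattern over the 6 mice. Closest to Fkbp5 were Depp1 (0.134 log2 units), Acot2 (0.144) and Slc25a34 (0.164). Depp1 and Acot2 were themselves higher in obese atria (log2 fold changes 1.44 and 1.57, limma adjusted p = 0.028 and 0.0173). Closest to Cebpd were Timp1 (0.038), Ifi205 (0.093) and A4galt (0.121), of which Ifi205 passed the threshold (limma, adjusted p = 0.031). A gene picked for its close pattern over the same 6 mice has a like fold change by construction, so these are not separate findings.

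Tsc22d3 was most like Pim3 (0.047 log2 units), Adora2a (0.072) and Herpud1 (0.077), and Errfi1 most like Vsir (0.045), Srgn (0.064) and Gm5532 (0.071). The closest to Zbtb16 were farther away than those of any other of the 8 genes, namely Gpam (0.405), Gm47283 (0.507) and Trim67 (0.525). For Ddit4 they were Clec10a (0.159), Gm16439 (0.171) and Shld1 (0.198). Nr3c1 and Hsd11b1, which differed little between mice, were closest to Zdhhc17 (0.028), Rnf19a (0.030) and Fam208b (0.039) for Nr3c1 and Zfp646 (0.017), Klf13 (0.049) and Lins1 (0.053) for Hsd11b1. Among the 6 targets themselves, Ddit4 and Tsc22d3 differed by 0.347 with 44 genes closer to Ddit4 than Tsc22d3 was, and Cebpd and Errfi1 by 0.274 with 72 genes closer to Cebpd, so no target had another target among its 3 closest genes.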

How the data were processed

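Atrial RNA of 3 obese and 3 lean mice was made into directional libraries and sequenced. Per the study's methods, STAR was used by the authors for alignment to GRCm38 and Salmon for the assignment of uniquely mapping reads to Ensembl genes. The deposited values, a signal for each gene in each sample, are read counts that the authors scaled by 1 DESeq2 size factor for every library. Whether counting took strand into account is not stated. Columns of the authors' own comparison (log2 fold change, its standard error, test statistic, p-values and a ranking score) were not used.

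Values were whole multiples of the value of 1 read in 100% of cases (within 0.1 read), so reads could be recovered, and a signal was taken to need 3 reads. The main test was limma 3.58.1 in R 4.3.3 (lmFit and trended eBayes) on log2(normalized count + 1), restricted to genes averaging 10 or more, with all 6 samples, no covariates, Benjamini-Hochberg adjustment and a threshold of 0.05. It was also run on simulated data with known fold changes. These were drawn independently for each mouse and so do not cover a mouse that stands apart over many genes. Single genes also had a two-sided exact permutation test. Alternatives were edgeR 4.0.16 (TMM or RLE) and DESeq2 1.42.0 on the recovered reads, limma without a variance trend, quantile normalization, other filters and pseudocount, mitochondrial genes left out, the replicate number as a block, a fold criterion and each mouse left out.

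The 8 genes and the 20 gene lists were chosen with earlier results of these data known. Genes are named from GENCODE for 97.8% of identifiers. Named are the 8 genes, of each list the genes past the threshold, otherwise the 2 with the smallest p and the 2 with the highest mean, and for each of the 8 the 3 genes with the closest pattern; of marker lists of cell types, clock and immediate early genes, mainly counts are given, and 1 gene that this rule names is not reported here. Exon lengths are those of GENCODE within the deposited gene bounds. Genes that overlap, or that share reads with near-identical copies, are uncertain.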

Additional observations from a re-analysis of the deposited data

How the results depend on the processing

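Of 128 recomputed log2 fold changes of the 8 genes, 112 kept their direction and their side of the threshold. The number of genes called (114, 74 higher and 40 lower) was 483 (297 and 186) with DESeq2, 0 in each direction without a variance trend, 69 with a fold criterion (a log2 fold change above 1 or below -1) and 14 to 342 with each mouse left out (10 to 218 higher, 4 to 124 lower). Of the 8 genes, 3 were called with DESeq2, 2 without a filter on low values, 2 with a minimum of 10 in every sample and 0 to 4 with each mouse left out. Of the 25 other induced genes (6 called), DESeq2 called 12, the fit without a variance trend 0 and the replicate block 10. Fkbp5 passed the threshold with DESeq2 (log2 fold change 1.56, adjusted p = 7.5e-07), without a filter (1.5, 0.0298) and with the minimum in every sample (1.5, 0.0397), and Cebpd did so under the same 3 settings (0.96, 0.000354; 0.95, 0.0416; 0.95, 0.0469). Errfi1 passed with DESeq2 (0.51, adjusted p = 0.0443). The cause of these differences was not tested. With each mouse left out the log2 fold change of Fkbp5 was 1.29 to 1.88, of Tsc22d3 0.32 to 0.61, of Zbtb16 1.03 to 2.02 and of Ddit4 0.45 to 1.21. That of Nr3c1 was -0.10 to 0.10, positive without obese mouse 1 (0.08) and without lean mouse 3 (0.10).

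Mice of the same number in the 2 diets are different animals. The correlations of their deviations from the group means were 0.116, -0.027 and -0.00386. Those of mice with unlike numbers ran from -0.147 to 0.16. With 3 mice a group these values cannot exclude a batch shared by number. With the replicate block 113 genes were called higher, and 3 of the 8 genes passed: Fkbp5 (1.5, adjusted p = 0.00216), Zbtb16 (1.64, 0.0211) and Cebpd (0.95, 0.0471).

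With 3 mice a group the precision is limited by the spread between mice, and a miss of the threshold does not show that a gene did not differ.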
